A study of Homo sapiens with 4 samples.

Results

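The change that oncogenic RAS made to chromosome folding in fibroblasts depleted of HMGA1 was read from a pair of Hi-C maps, as the OIS-shA1 value of each pair of 200 kb bins minus its Grow-shA1 value. Members were the pairs of autosomal bins listed in both maps, which came to 3424646 of the 4771282 autosomal pairs listed in any of the 4 maps deposited with the series. IMR90 is an established line of normal human lung fibroblasts. Every cell carried pLNCX2 ER:HRAS G12V, a mutant HRAS fused to the oestrogen receptor and held inactive until 4-hydroxytamoxifen (4OHT) is given, and the vector pMSCV miR shHMGA1, a hairpin in a microRNA backbone directed against HMGA1. OIS-shA1 cells received 100 nM 4OHT for 6 days, which drives oncogene-induced senescence (OIS). Grow-shA1 cells carried the same constructs and received no 4OHT, so RAS activity and exposure to the drug cannot be told apart. Each group had 2 samples, pooled in the deposited files into 1 map per group, and the Grow and OIS maps without the hairpin belong to an earlier data set and to no sample of the series. There was therefore no spread between replicates, no p-value is given, and the standard deviation (SD) over the 22 autosomes is the spread quoted instead.

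Chromatin divides into an A compartment, which is gene-rich and mostly active, and a B compartment, which is gene-poor, late replicating and often held at the nuclear lamina, and regions of a kind contact each other preferentially across large distances. Senescent fibroblasts detach much of this heterochromatin from the lamina and may gather it into senescence-associated heterochromatic foci. HMGA1 is a small architectural protein with AT-hooks that bind the minor groove of AT-rich DNA, the kind of DNA that predominates in B.

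Map values were contact scores corrected for the distance between bins, in which 0 is near the average for that distance. Their logarithm base is not stated, so all values are given in score units. Of 13547 autosomal bins, 12917 had at least 50% of their pairs listed in each of the 2 maps, and the Grow-shA1 map placed 5381 of them in A and 7536 in B. Distal pairs, those over 2 Mb apart, were listed for 83.3% of possible pairs in Grow-shA1 and 77.3% in OIS-shA1. The OIS-shA1 map also rests on fewer reads, as the study states. The part of these differences in the values below was not tested. The compartment shift of a bin was the mean change of its distal contact with A bins minus the mean change with B bins. A bin was called toward A at a shift of 0.5 or more and toward B at -0.5 or below.

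Bin edges were set at cuts of HindIII, the enzyme of the assay, and 13525 of 13525 inner autosomal edges lay at its site on hg19. The left edges of the 3 runs of adjacent bins with the largest shifts toward A and the 3 toward B are shown to place these regions in the genome. They are read on the + strand with the site in capitals. Labels name genes that start in a run or overlap part of it, and the edge itself need not lie in them.

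3q toward A, KCNAB1, chr3:155604697-155604726: cccttaaggaaAAGCTTttctgcaacttta
6q toward A, SESN1 to SLC22A16, chr6:109203720-109203749: agatgaaaaatAAGCTTacagtacgcaaaa
18q toward A, SERPINB genes, chr18:61000623-61000652: tggaatttttaAAGCTTtatcctgatggta
13q toward B, no gene, chr13:90600963-90600992: tctagtggggaAAGCTTttttcaatattat
2q toward B, body of ERBB4, chr2:211599900-211599929: ccatgcagtggAAGCTTagttctttcactc
13q toward B, DIAPH3, chr13:60197879-60197908: gaaaagtactaAAGCTTtttctacctccaa

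In OIS-shA1, more bins moved toward A than toward B, with A and B bins taken from the Grow-shA1 map. Most bins of both kinds were B bins of that map. Of 12912 bins tested, 655 shifted toward A (5.07%) and 156 toward B (1.21%). Of the bins toward A, 493 were B bins (75.3%), and of those toward B, 138 were (88.5%), against 58.3% of all bins tested. Toward A went 6.55% of B bins and 3.01% of A bins, and toward B 1.83% and 0.335%. With compartments of the OIS-shA1 map the count toward B was higher, as given under processing. The nearest values on either side of the threshold lay at 0.50 for A and -0.50 for B, so the calls cut through a continuous range.

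A call fixes the direction of the change with A relative to that with B, so only sizes are described here. In the bins toward A the median change was -0.375 with B bins and 0.239 with A bins. Over all bins tested it was -0.0686 with B bins and -0.0270 with A bins. Of the bins toward A, 363 changed sign of the compartment score from B to A. They held the starts of 1023 protein-coding genes, had a median GC content of 42.3%, and 30.2% of them held no gene start. The bins toward B had a median change of -0.382 with A bins and 0.169 with B bins. Their median GC content was 35.6% and 77.6% of them held no gene start, against 39.8% and 47.2% over all bins tested. Most of the bins toward B were already B bins, and 18 of the 156 were A bins. The median compartment score of all 156 went from -0.715 in Grow-shA1 to -0.778 in OIS-shA1. Contact within 2 Mb also differed, with a median change of -0.263 in the bins toward B and 0.0180 in those toward A, against -0.0891 over all bins tested.

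Base composition ordered the B bins. B bins were split into 5 equal groups by GC content, each of 1506 or 1507 bins. In the AT-richest group, between 32.7% and 35.9% GC, the median shift was -0.216. It was -0.131, -0.0330 and 0.0745 in the next groups and 0.223 in the GC-richest, between 42.5% and 59.7% GC. AT-rich B bins therefore lay on the B side of 0 and GC-rich B bins on the A side.

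The levels in each map show where that order came from. The median score of the AT-richest B bins with A bins was -0.625 in Grow-shA1 and -0.836 in OIS-shA1, while their score with B bins was 0.576 and 0.631. The GC-richest B bins had a median score of 0.422 with B bins in Grow-shA1 and 0.207 in OIS-shA1, and of -0.381 and -0.325 with A bins. AT-rich B bins thus lost contact with A, and GC-rich B bins lost contact with B.

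**Figure D1:**
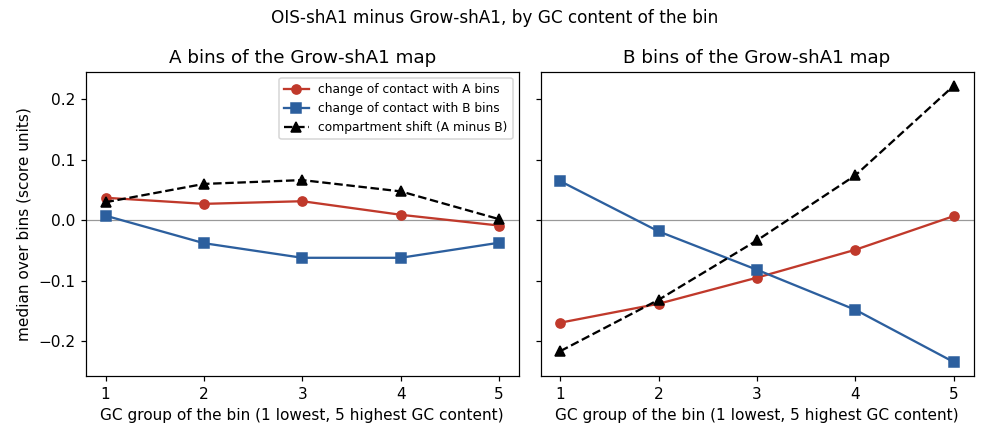
Median change over bins (score units) against GC group (1 lowest, 5 highest GC content), for the A bins (left) and the B bins (right) of the Grow-shA1 map. Circles are the change of distal contact with A bins, squares with B bins, and triangles the compartment shift, which in B bins runs from -0.216 to 0.223 and in A bins stays between 0.00207 and 0.0666.

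Calls followed the same order. In the AT-richest group of B bins 0.796% were called toward A and 6.04% toward B, and in the GC-richest group 16.5% and 0%. The median shift of the GC-richest group was above 0 on 22 of 22 autosomes, as was that of the group below it. The median of the AT-richest group was below 0 on 14 of the 19 autosomes that held such bins. Over the 7532 B bins the shift and GC content had a Pearson r of 0.538, given as a description since neighbouring bins share contacts and sequence. The value was above 0 on 21 of 22 autosomes, with a median of 0.506. A bins had no such order, with an r of -0.0414 over 5380 bins.

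GC content moves with compartment score and with the number of HindIII sites, so B bins were also split by each. Groups at the ends stayed wide, such as 69 to 367 HindIII sites, so neither was held fixed. Within 5 groups of B bins by compartment score, r between shift and GC content ran from 0.601 in the most B-like group to 0.325 in the group nearest to 0. Within 5 groups by number of HindIII sites per bin it ran from 0.376 to 0.558. Direct dependence of the scores on GC content of the libraries was not tested.

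Bins toward A formed 66 runs of at least 3 adjacent bins, with 260 bins and 427 gene starts in all. Only 1 of these runs held no gene start. Bins toward B formed 17 runs, with 65 bins and 31 gene starts, and 11 of them held no gene start. Being chosen on the shift, the runs below are described and not tested.

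The run with the largest mean shift toward A lay on 3q, at chr3:155604709-156199198, and held the start of KCNAB1, which encodes a beta subunit of voltage-gated potassium channels. Its mean score with A bins was -0.00576 in Grow-shA1 and 0.333 in OIS-shA1, and with B bins 0.178 and -0.356. The mean shift was 0.873 ± 0.150 (SD over 3 bins), and all 3 bins changed from B to A. It overlapped 1 more gene, GMPS, which encodes a guanine nucleotide synthetase.

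The second run covered 8 bins of 6q, at chr6:109203732-110800540, and was among the gene-dense ones. It held 15 gene starts, among them SESN1, a stress-induced target of p53, CD164, a cell-surface sialomucin, FIG4, a phosphoinositide phosphatase, and ZBTB24, a zinc finger protein required for methylation of centromeric repeats. The mean score with B bins was 0.0438 in Grow-shA1 and -0.509 in OIS-shA1, and with A bins -0.194 and 0.0849. Loss of contact with B made up most of the mean shift of 0.832 ± 0.173 (SD over 8 bins), and 7 of the 8 bins changed from B to A. Contact within 2 Mb rose by a mean of 0.268.

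The run on 18q, at chr18:61000635-61600321, held the SERPINB cluster, a group of serine protease inhibitor genes that includes SERPINB2, a urokinase inhibitor, together with KDSR and VPS4B. Its mean score with A bins was 0.138 in Grow-shA1 and 0.478 in OIS-shA1, and with B bins 0.375 and -0.115. The mean shift was 0.830 ± 0.114 (SD over 3 bins), although 2 of its 3 bins were A bins at the start. Contact within 2 Mb changed by -0.403. It fell, as did distal contact with B bins, while distal contact with A bins rose.

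The longest run had 12 bins on 14q, at chr14:90400003-92796688, with 20 gene starts. They included RPS6KA5 for the kinase MSK1 that acts below ERK and p38 on histone H3, CCDC88C for a Wnt pathway regulator, FBLN5 for a protein of elastic fibres, and ATXN3 for a deubiquitinase. The mean score with A bins was -0.111 in Grow-shA1 and 0.301 in OIS-shA1, and with B bins -0.00239 and -0.412. Gain of A and loss of B were of like size here, for a mean shift of 0.821 ± 0.193 (SD over 12 bins). A run of 6 bins on 11q, at chr11:126800958-127999788, held only KIRREL3, an adhesion molecule of neurons, and had a mean shift of 0.817. A run of 4 bins on 12q, at chr12:94597180-95399845, held CEP83, TMCC3 and NDUFA12 and had a mean shift of 0.817.

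Most runs toward B held no gene start, and of the 31 gene starts in the others 23 belonged to keratin associated proteins of 1 run on 21q, described below with their family. The largest mean shift was that of 7 bins on 13q, at chr13:90600975-91998120, with no gene start, where the score with A bins went from -0.450 in Grow-shA1 to -0.840 in OIS-shA1 and that with B bins from 0.824 to 1.07. Its mean shift was -0.634 ± 0.0445 (SD over 7 bins). The next, 5 bins on 2q at chr2:211599912-212601618, overlapped part of the body of ERBB4, a receptor tyrosine kinase, without its start. There the score with A bins went from -0.435 to -0.985, for a mean shift of -0.631. Only 56.9% of the distal pairs of this run were listed in both maps.

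DIAPH3, which encodes a formin that nucleates actin filaments, lay in the only one of the 17 runs toward B that was made of A bins. It had 3 bins, at chr13:60197891-60797552. Their mean score with B bins was -0.140 in Grow-shA1 and 0.304 in OIS-shA1, and with A bins 0.379 and 0.212. The mean shift was -0.611 ± 0.0944 (SD over 3 bins) and the compartment score fell from 0.533 to 0.102, with no change of sign. The remaining 3 named runs lay in B. A run of 3 bins on 6q, at chr6:123799945-124401169, held the starts of TRDN, for triadin of the muscle calcium release complex, and NKAIN2, and had a mean shift of -0.588. The 2 runs on 4q, at chr4:179198126-179998526 and chr4:117201815-118000632, held no gene start and had mean shifts of -0.598 and -0.587.

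**Figure D2:**
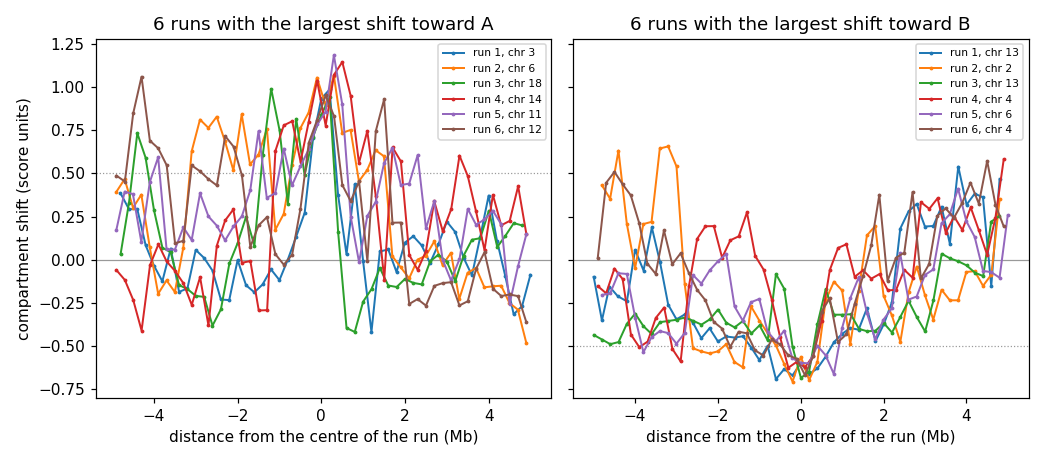
Compartment shift (score units) of each bin against its distance in Mb from the centre of the run, for the 6 runs with the largest mean shift toward A (left) and toward B (right). Lines are runs, points are bins and dotted lines mark 0.5 and -0.5; the single bins of the runs toward A reach 1.18, and those toward B reach -0.704.

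Of the 6814 tested bins that hold a gene start, 457 (6.71%) were called toward A and 35 (0.514%) toward B. Among them, the highest shift was 1.07, in the bin of CCDC88C and PPP4R3A on 14q. GPR6, an orphan receptor gene on 6q, lay in a bin with a shift of 1.06, and ZBTB24 in a bin with 1.05. OLIG2, a transcription factor of the oligodendrocyte and motor neuron lineages on 21q, lay in a bin with a shift of 1.02, where the change was 0.448 with A bins and -0.569 with B bins. The lowest was -0.706, in an A bin of 22q with KIAA0930, UPK3A and FAM118A. SPOCK3, a testican proteoglycan gene on 4q, followed with -0.672, PGPEP1L on 15q with -0.658, a bin of DIAPH3 on 13q with -0.646, and the claudin genes CLDN17 and CLDN8 on 21q with -0.632.

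By arm, bins toward A were spread over the genome and bins toward B were not. All 39 autosome arms measured held bins toward A, from 0.578% of tested bins on 12p to 10.7% on 18q. Only 18 arms held any toward B. On 4q 54 bins were called toward B, 7.80% of its bins, which was the highest share, followed by 4.60% on 13q, and 2q held 22 such bins. Chromosome 4 was the only autosome with more bins toward B than toward A, 54 against 37. On 21 of 22 autosomes the bins toward A were in the majority.

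**Figure D3:**
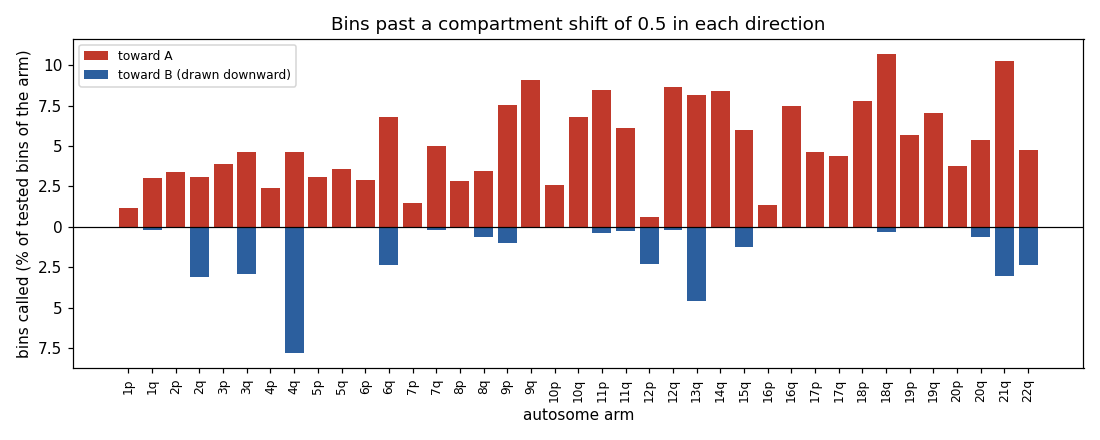
Share of the tested bins of each autosome arm called toward A (upward bars) and toward B (bars drawn downward), in % on a scale that starts at 0. The tallest upward bar is 18q at 10.7% and the longest downward bar is 4q at 7.80%.

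Mean distal contact within an arm fell on 35 of 39 arms and rose on 4. It fell most on 16q, from the Grow-shA1 to the OIS-shA1 map, with a change of -0.256, then on 20p (-0.236), 19p (-0.199) and 19q (-0.198). It rose on 4p (0.0335), 1p (0.0308), 4q (0.0195) and 13q (0.000763). Since short arms hold only short distances, the mean change of all pairs at the same distance was also taken away. The change was then still lowest on 16q (-0.165) and 20p (-0.134) and highest on 4p (0.123) and 1p (0.0843), and 18 of 39 arms were above 0. Contact between the p and q arms changed by a mean of -0.0375 ± 0.0416 (SD over 17 chromosomes), lowest on chromosome 16 (-0.145).

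Arms differed also in which compartment changed. On 17q contact among B bins changed by -0.457, and by -0.377 with the mean change at the same distance taken away. Among the A bins of 17q the change was -0.0123, which turned to 0.0674 once distance was matched. On 4p contact among A bins changed by 0.332, or 0.416 matched for distance, and among B bins by -0.0181, which turned to 0.0725. On 4q contact rose among A bins by 0.104 and among B bins by 0.0648, or 0.142 and 0.104 matched for distance. Contact between A and B on 4q changed by -0.0625, or -0.0133 matched for distance.

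Over all autosomes, contact between unlike compartments fell at short distal range and contact among B bins fell at intermediate range. For pairs 2 to 5 Mb apart, the mean A-B score was -0.876 in Grow-shA1 and -1.12 in OIS-shA1, a change of -0.248 ± 0.0792 (SD over 22 autosomes) that was negative on 22 of 22. For pairs 10 to 20 Mb apart, the mean B-B score was 0.833 and 0.612, a change of -0.221 ± 0.129 (SD over 22 autosomes). Contact among A bins rose most at 5 to 10 Mb, by 0.113 ± 0.0862 (SD over 22 autosomes). Beyond 50 Mb no class changed by more than 0.0574. The SD over autosomes is a spread between chromosomes, not an error of the measurement.

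**Figure D4:**
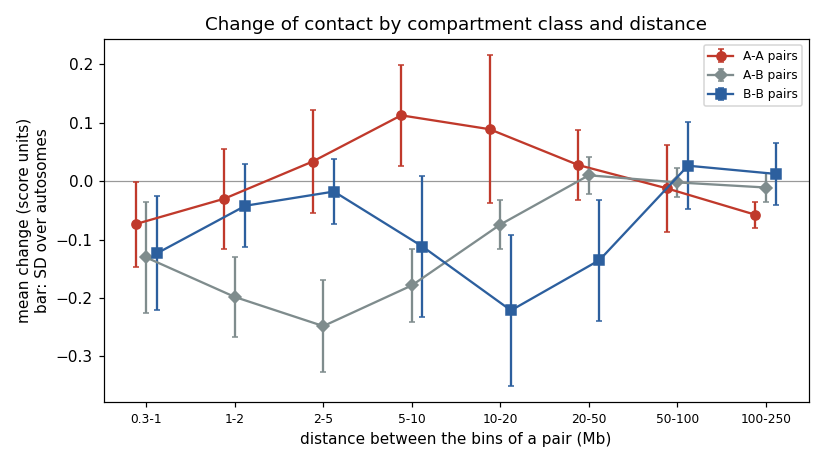
Mean change of contact (score units) against the distance between the bins of a pair, in Mb, for A-A, A-B and B-B pairs; bars are the SD over autosomes. A-B pairs are lowest at 2 to 5 Mb (-0.248), B-B pairs at 10 to 20 Mb (-0.221), and A-A pairs are highest at 5 to 10 Mb (0.113).

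Pooled over every distance beyond 2 Mb these changes partly cancelled. The mean change was 0.0178 ± 0.0527 for A-A, -0.0469 ± 0.0250 for A-B and -0.0753 ± 0.0945 for B-B pairs (SD over 22 autosomes). Compartment strength, the mean of the like classes minus the unlike one, went from 0.744 to 0.762, a change smaller than its SD over autosomes of 0.0719. At 2 Mb or less it changed by 0.102 ± 0.0541 (SD over 22 autosomes), rising on 21 of 22. The sign of the pooled A-A, A-B and strength changes turned with the treatment of values, as given under processing. Between the maps, 1023 bins left B for A and 113 left A for B, together 8.79% of the kept bins.

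Genes were placed by the bin of their start, which is a coarse address, since a 200 kb bin may hold up to 20 members of a list. Of 17129 protein-coding genes tested, 5.97% lay in bins toward A and 0.432% in bins toward B, with a median shift of 0.0641. For 27 of the genes named by the study, 0 lay in a called bin, and their shifts ran from -0.374 to 0.390. The study also names FBN1, in a bin toward B with -0.530, HMGA2 with -0.380 and CCN2 with -0.397, which are outside that set and are described with their lists.

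The senescence-associated secretory phenotype (SASP) is the set of cytokines, proteases and growth factors that senescent cells release. Of 26 SASP cytokines and chemokines 1 lay in a bin toward A and 0 in a bin toward B, with a median shift of 0.0832. The member toward A was IL33, an alarmin of the IL-1 family, whose score with B bins was 0.594 in Grow-shA1 and 0.118 in OIS-shA1, with a shift of 0.697 and a change from B to A. NFKBIA, the inhibitor of NF-kappaB, had 0.334, and CXCL2 and CXCL3, neutrophil chemokines of the 4q cluster, shared a bin with 0.272. IL6, a main cytokine of the SASP, had the lowest value, -0.343, with a score with B bins of -0.957 in Grow-shA1 and -0.652 in OIS-shA1. IL11, an IL-6 family cytokine, had -0.295.

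Among the SASP proteases and inhibitors 2 of 15 tested lay in bins toward A and the median shift was 0.302. SERPINB2 had the highest value of the list, 0.940, and its score with B bins was 0.309 in Grow-shA1 and -0.291 in OIS-shA1. MMP9, a gelatinase, had a shift of 0.814, with a score with A bins of -0.403 in Grow-shA1 and 0.0324 in OIS-shA1. The collagenase MMP1 and the stromelysin MMP3 shared a bin on 11q with a shift of 0.390, which came from contact with B bins, at -0.449 in Grow-shA1 and -0.875 in OIS-shA1. PLAU, for urokinase, was lowest with -0.389, and PLAT, for tissue plasminogen activator, had -0.234. Since MMP1, MMP3 and their neighbours sit in 1 bin, the median over the 12 bins of the list was 0.0394.

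Arrest regulators, genes that promote or oppose a stop of the cell cycle, had 1 of 11 tested toward A. It was MDM2, the ubiquitin ligase of p53, with a shift of 0.754. Its score with A bins was -0.0521 in Grow-shA1 and 0.266 in OIS-shA1, and with B bins 0.0573 and -0.379. RBL2, for the pocket protein p130, had 0.337, and the lowest were CDKN2B, for p15, with -0.374 and CDKN1B, for p27, with -0.218. CDKN2A, for p16 and ARF, lay in the bin next to CDKN2B and had 0.0553.

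Of 33 cell cycle genes tested 0 lay in called bins, and their median shift was 0.0776. CENPA, the centromeric histone H3, was highest with 0.409, followed by the checkpoint kinase BUB1 with 0.310. CENPE, a kinetochore motor, was lowest with -0.379, followed by the mitotic kinase AURKB with -0.245. CDK1, the mitotic kinase, changed from B to A with a shift of 0.152.

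Of 24 extracellular matrix and fibroblast genes tested, 8 had a shift above 0 and the median was -0.0595. FBN1, for fibrillin of microfibrils, lay in a bin toward B with -0.530. This was an A bin, whose score with B bins was -0.476 in Grow-shA1 and -0.107 in OIS-shA1. CCN2, for connective tissue growth factor, had -0.397. FBLN2, for a fibulin, had 0.328 and VCAN, for the proteoglycan versican, 0.239, while DCN and LUM, for decorin and lumican, shared a bin with 0.0952.

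In the TGF beta pathway 0 of 13 genes lay in called bins, from SMAD3, a receptor-activated signal carrier, at -0.278 to TGFB3, a ligand, at 0.439. Of 19 RAS and ERK pathway genes tested 1 lay toward A, the ERK-driven transcription factor gene ETV5 with 0.575, and JUN, of AP-1, was lowest with -0.257. Of 7 IGF binding protein genes 0 lay in called bins, with IGFBP7 at -0.178 and IGFBP1 and IGFBP3 in 1 bin at 0.245. Of the 14 HMG, lamina and heterochromatin genes tested 0 lay in called bins. HMGA2, the close relative of HMGA1, had the lowest value, -0.380, and HIRA, a chaperone of histone H3.3, the highest, 0.4005. LMNB1, for lamin B1, had 0.350, and the bin of HMGA1 itself had -0.142 and a compartment score that changed sign from A to B.

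**Figure D5:**
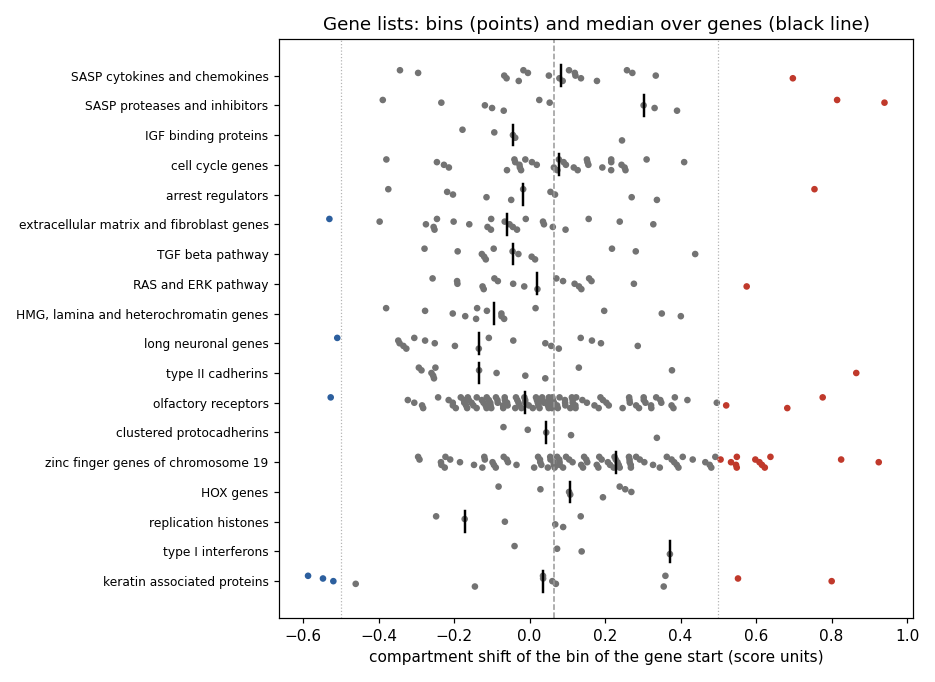
Compartment shift of the bins that hold the gene starts of 18 lists (score units). Points are bins, red at 0.5 or above and blue at -0.5 or below, black lines are medians over the genes of a list, and the dashed line is the median over all genes (0.0641); the zinc finger list of chromosome 19 holds 12 of the red points.

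Gene families packed into clusters gave the largest counts, from few bins. Zinc finger genes of chromosome 19, most of which encode repressors with a KRAB domain, had 47 of 249 in bins toward A and 0 toward B, with a median shift of 0.228. That count depended on the settings: it was 5 at a threshold of 0.7 and 100 at 0.3, 20 over bins with at least 75% of pairs listed, and 26 with compartments of the OIS-shA1 map. The 47 genes lay in 12 of 88 bins, or 13.6%, against 3.38% of the 148 other gene bins of the chromosome. The bins with zinc finger genes were more often B bins, 68 of 88 against 51 of 148. Among B bins alone the medians were 0.224 with zinc finger genes and 0.180 without. Over all 88 bins with zinc finger genes the median change was -0.259 with B bins and -0.0541 with A bins. The 12 called bins, chosen on the shift, each had a higher score with A bins in OIS-shA1.

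The called zinc finger bins formed groups on both arms. On 19p, 4 adjacent bins held 20 genes, and the highest, with ZNF136, ZNF20 and ZNF625, had a shift of 0.925 and scores with B bins of 0.239 in Grow-shA1 and -0.324 in OIS-shA1. Its scores with A bins were -0.434 and -0.0720. On 19q, the bin of ZNF566 had a shift of 0.825, with scores with B bins of 0.723 and 0.101. With A bins they were -0.387 and -0.184. All 4 bins of the 19p group changed from B to A, and the bin of ZNF566 did not.

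The keratin associated proteins, which cross-link keratin in hair, had 94 genes tested in 13 bins, with a median shift of 0.0358. Of these bins 2 were called toward A and 3 toward B, all on 21q, and the others were not called. By gene, 16 of 94 lay toward A and 23 toward B, against 5.97% and 0.432% of all genes tested. The KRTAP10 and KRTAP12 genes, 16 in 2 bins near the end of the arm, had shifts of 0.552 and 0.80, and GC contents of 52.7% and 49.6%. A group of 23 genes around KRTAP19 and KRTAP20, in 3 bins with GC contents from 36.1% to 39.1%, had shifts from -0.587 to -0.520. In the bin of KRTAP8-1 the score with A bins was -1.41 in Grow-shA1 and -2.07 in OIS-shA1.

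Of 397 olfactory receptor genes tested, 3 lay in bins toward A and 4 toward B, with a median of -0.0112 over genes and 0.0332 over their 111 bins. The 4 toward B, OR51B2, OR51B4, OR51B6 and OR51V1, share a bin on 11p that changed from A to B with a shift of -0.527. The long neuronal genes, adhesion and synapse genes that span much of a B domain, had a median of -0.135. Type II cadherins had a median of -0.134, and CDH22, in the bin beside MMP9 on 20q, was the 1 of 13 toward A with 0.865.

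Histone genes of replication had a median of -0.172 over 52 genes, but of 0.00123 over their 6 bins, since many of the genes share a bin. HOX genes, which set position along the body axis, had a median of 0.108 over 39 genes and 0.151 over their 8 bins, from HOXD13 at -0.0822 to HOXC4 at 0.269. The type I interferons had 0.372 over 17 genes, of which the bin of IFNA2 held most, and 0.105 over their 4 bins. The clustered protocadherins had 0.0440 over 53 genes in 5 bins. In these 4 families 0 genes lay in called bins.

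Pairs with the largest gain of contact were joined into networks, from the 1% of distal pairs of each autosome with the largest increase, and the k-core of a network is its most interconnected part, in which every bin keeps at least k links to the rest. The largest k was 11, on chromosome 1, 10 on chromosome 3 and 8 on chromosomes 4 and 13, against a median of 4.5 over 22 autosomes. The number of links grows with the pairs of an autosome, from 107 on chromosome 22 to 4070 on chromosome 2. Its part in the differences of k was not tested. Such cores lay in AT-rich B chromatin on these chromosomes.

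The core of chromosome 1 had 25 bins, all on 1q between 186999845 and 199198758. Of these 88% were B bins, and the mean GC content was 34.5% against 41.2% over the chromosome. It held 5 gene starts, for the complement factor H related genes CFHR4, CFHR2 and CFHR5, the photoreceptor polarity gene CRB1, and PTPRC, the leukocyte phosphatase CD45. The core of chromosome 3 joined 25 bins of the p arm with 34 of the q arm, all of them B bins. It included the starts of ROBO1, a receptor of axon guidance, and CADM2 on the p arm, and of EPHA6, SLITRK3, BCHE and SERPINI2 on the q arm.

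The core of chromosome 4 had 124 bins, all B, and included the starts of EPHA5, PCDH10, FSTL5 and SPOCK3. The core of chromosome 13 had 27 bins and included the start of SLITRK1, a neurite regulator. On 12 of 22 autosomes the core had a lower GC content than its chromosome. Over all autosomes pairs of B bins made up 41.4% of the strongest gains and 40.7% of all distal pairs listed in both maps.

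The same changes were then set beside OIS minus Grow, the RAS change without the hairpin, over 12845 bins with pairs listed in all 4 maps. The differences have no map in common, but the maps without the hairpin come from another data set, so HMGA1 depletion and data set cannot be told apart. Over these bins 757 (5.89%) shifted toward A with the hairpin and 576 (4.48%) without it, and 351 did so in both, which is 46.4% of the former and 60.9% of the latter. Toward B the counts were 291 (2.27%) with the hairpin and 897 (6.98%) without it. The 243 shared bins are 83.5% and 27.1% of these lists. The shifts of the 2 differences had a Pearson r of 0.833 and a Spearman rho of 0.827 over bins, which share neighbours and base composition.

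The values without the hairpin below rest on pairs listed in all 4 maps, and those with it, unless stated, on the pairs of its own 2 maps. In both differences A and B bins were those of the Grow-shA1 map. The AT-richest group of B bins had a median shift of -0.216 with the hairpin and -0.383 without it, and the GC-richest group 0.223 and 0.182. Their contact with A bins changed by -0.169 and -0.342 in the AT-richest group, and their contact with B bins by 0.0649 and 0.0638. The 12 named runs had a mean shift of the same sign in both differences. In the run of SESN1 the shift was 0.832 with the hairpin and 0.565 without it, and in the run overlapping ERBB4 it was -0.631 and -0.917. On pairs listed in all 4 maps, the values with the hairpin were 0.854 for the run of SESN1 and -0.730 for that overlapping ERBB4. Of the genes in called bins, MMP9 had 0.814 with the hairpin and 0.550 without it, FBN1 -0.530 and -0.294, and OR1M1 0.521 and -0.0537.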

How the data were processed

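Per the methods, Hi-C libraries cut with HindIII were aligned by the authors with HiC-Pro to hg19 and binned at 200 kb. The deposited maps hold, for each listed pair of bins within a chromosome, an ICE-normalized and distance-corrected score, and the deposited bin list holds other values, the bin edges. The 2 samples of each group were pooled by the authors before deposit. The files give no counts per pair, so no counting error could be computed. The study gives a total of reads for each map, lower for OIS-shA1 than for Grow-shA1.

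The 2 scores of a pair were subtracted without further scaling. Compartments came from the leading component of the correlation matrix of the Grow-shA1 map of each chromosome, turned so that A held more genes. Bins needed at least 10 distal pairs of each class. Bin edges matched GRCh37, and gene starts came from GENCODE 44 lifted to it. Arms were split at the longest run of N of at least 2.5 Mb and needed 20 bins. Python 3.11.15, numpy 2.4.6, pandas 2.3.3 and networkx 3.6.1 were used. The bin measure was run on simulated shifts with independent noise for each pair, unlike real maps. That run checks the calculation and not the calls.

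No test was made, since each group is 1 map. Runs named were the 6 with the largest mean shift in each direction, of at least 3 adjacent bins. Genes named were the 2 highest and 2 lowest of each of 18 lists (of which a selection is given), 27 of the genes named by the study, and those of the 5 highest and 5 lowest bins with a gene start. Genes in called bins are named besides. Results for some genes are not reported here. Members, lists and measures were chosen with earlier results of these data known. Alternatives changed the treatment of unlisted pairs, values, distances, compartments, bins and thresholds.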

Additional observations from a re-analysis of the deposited data

Results flagged for a closer look

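Of 36 results set side by side over pairs listed in all 4 maps, 5 had opposite signs in OIS-shA1 minus Grow-shA1 and in OIS minus Grow. These differences were not tested, and the hairpin and the data set cannot be told apart in them. Contact among A bins at 2 Mb or less changed by -0.0452 with the hairpin and 0.0517 without it. The median shift of the arrest regulators was -0.0461 with the hairpin and 0.210 without it, and that of the IGF binding proteins was -0.0881 and 0.108. The median shift of the HMG, lamina and heterochromatin genes was -0.0883 and 0.0810, and that of the TGF beta pathway was -0.0563 and 0.0171.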

How the results depend on the processing

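No paired analysis was possible because the 2 replicates of each group were pooled into 1 map before deposit, and for the same reason no replicate could be left out. Class, arm and group values were held against the SD over autosomes, runs against the SD over their own bins, genes against the SD over all bins tested, and counts against 1.5 times the main count. The 12 named runs and 8 genes of the lists in called bins kept their sign under every one of 12 alternatives that gave a value. Sizes ran from 0.115 to 1.24 for runs and from 0.2999 to 1.06 for genes. Both had been chosen on a large shift, so a kept sign is a weak check. Runs toward A moved past their SD in at most 3 of 12 alternatives. Toward B, the run of TRDN and NKAIN2 moved in 11 of 12, to as little as -0.115. The run overlapping ERBB4 moved in 6 of 11, to as little as -0.155. The 2 runs on 4q moved in 6 of 11 and 6 of 12. The 13q run without a gene start moved in 5 of 12, and that of DIAPH3 in 1 of 12. The AT-richest and GC-richest of the 5 groups of B bins also kept their signs, at -0.347 to -0.0289 and 0.112 to 0.349.

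Of the pooled distal class means, only that of B-B pairs kept its sign in every alternative, at -0.143 to -0.0151. With values divided by the SD at the same distance, the distal change became -0.0283 for A-A and 0.00415 for A-B pairs, strength -0.0757, local A-B -0.0401, the GC-richest group 0.349, and 1170 bins moved toward A and 353 toward B. With unlisted pairs at the lowest value of the map, A-A became -0.0159, A-B -0.108, contact between arms -0.100, and 65 bins moved toward B. With unlisted pairs at 0, A-B became 0.0397, strength -0.0621, contact between arms 0.00939, the AT-richest group -0.0289, and 35 bins moved toward B. With the mean change at the same distance taken away, distal A-B became 0.00492, local A-A 0.0544, local A-B -0.0617 and local B-B 0.0198. With compartments of the OIS-shA1 map, A-B became -0.141, strength 0.161, local A-B -0.244, and 560 bins moved toward B. Pairs listed in all 4 maps gave 291 bins toward B, and pairs from 2 to 50 Mb 1405 toward A. Bins with at least 75% of pairs listed gave 361 toward A, 65 toward B and 222 changes from A to B. Thresholds of 0.3 and 0.7 gave 2048 and 143 bins toward A, and 1126 and 3 toward B. The cause of these moves was not tested. The calls therefore depend on unlisted pairs, scaling of values, distances, the map that sets compartments, the bins kept and the threshold. Values of single bins also carry a counting error that could not be computed.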
